A study of Caenorhabditis elegans with 6 samples.

Results

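Transcripts of the vitellogenin genes *vit-1* to *vit-6* were examined in dissected gonads of *Caenorhabditis elegans*. The members were the 6 genes with these WormBase symbols among 46772 counted genes, and all 6 passed the low count filter that left 9431 genes to test. RNA sequencing was carried out on 3 libraries from *set-2(bn129)* animals and 3 libraries from wildtype (WT, strain N2) animals. The mutants carried a loss-of-function allele of *set-2*, which encodes an H3K4 methyltransferase of the COMPASS complex, and were homozygotes born to heterozygous mothers. All animals were young adults 12 h past the L4 larval stage, and each library held gonads pooled from 5 to 7 animals. The sources do not say whether replicates came from separate cultures, so p-values measure the spread between these libraries. Gonads were cut at the elbow to keep the distal arm, in which germ cells divide and enter meiosis. The total count was 23403396 to 30724547 in *set-2(bn129)* libraries and 24814518 to 25231478 in WT libraries.

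Vitellogenins are the protein part of yolk. In adult hermaphrodites they are made by the intestine, secreted into the body cavity as lipoproteins and taken up by growing oocytes in the proximal gonad through the receptor RME-2. *vit-1* and *vit-2* encode closely related large yolk polypeptides, *vit-3*, *vit-4* and *vit-5* encode a second closely related group, and *vit-6* encodes a precursor that is cleaved into a pair of smaller yolk proteins. The RNA measured here is therefore that of genes whose known site of expression lies outside the gonad.

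On the WBcel235 assembly, 5 of the genes lie on chromosome X and *vit-6* lies on chromosome IV. *vit-1* spans 7727889 to 7733168 and *vit-2* spans 5101042 to 5106169 on chromosome X, both on the plus strand. *vit-5* spans 3403471 to 3408603 on the plus strand of the same chromosome. *vit-4* (3558769 to 3563965) and *vit-3* (3567355 to 3572549) are tandem genes on its minus strand with 3389 bases between them. *vit-6* spans 8261157 to 8266459 on the plus strand of chromosome IV. Each gene has 5 or 6 exons that sum to between 4870 and 5088 bases, so that exon length differs little among them. Exons of *vit-2*, *vit-3* and *vit-4* overlap a gene on the opposite strand by 11, 171 and 150 bases, and each of these partners held 0 counts over the 6 libraries. Reads that match several places equally well were removed before counting, so that levels of the close copies may be understated.

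The libraries were first checked against their labels. The *set-2* transcript was measured at 87.3, 94.1 and 99.2 CPM (counts relative to the TMM-scaled size of the library) in *set-2(bn129)* replicates 1, 2 and 3, against 149, 161 and 151 CPM in WT replicates 1, 2 and 3. Germline markers summed to 4328 to 4637 CPM in *set-2(bn129)* and 4423 to 4686 CPM in WT. Of the 16 germline genes, 0 were called by edgeR in either direction by the rule given below (5 lower and 3 higher at an unadjusted p under 0.05, and 0 called by DESeq2). With the edgeR adjusted p alone (no higher than 0.05), 5 were lower and 1 higher, against 21.1% lower over all genes tested. Log2 fold changes of the 16 genes lay between -0.23 and 0.39. The defining intestinal factor *elt-2* held 3 to 4 counts in *set-2(bn129)* libraries and 2 to 7 counts in WT libraries. Ribosomal RNA genes took 8.06% to 10.6% of the counts in *set-2(bn129)* and 13.6% to 14.9% in WT.

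Vitellogenin transcripts were a small part of every library, and they were lower in *set-2(bn129)* gonads. The 6 genes together held 3669, 4045 and 2158 counts in *set-2(bn129)* replicates 1, 2 and 3, against 5831, 10157 and 15147 counts in WT replicates 1, 2 and 3. As a share of all counts this was 0.0145%, 0.0173% and 0.0070% in *set-2(bn129)*, against 0.0231%, 0.0409% and 0.0606% in WT. The exact binomial 95% interval of the highest *set-2(bn129)* share was 0.0168% to 0.0178%, and that of the lowest WT share was 0.0225% to 0.0237%. These intervals cover counting error only. Every *set-2(bn129)* library lay below every WT library. Summed after scaling, the genes stood at 138, 164 and 69.3 CPM in *set-2(bn129)* and at 239.7, 432 and 626 CPM in WT. The difference in mean log2 sum was -1.79, so that the sum was 3.45-fold lower in *set-2(bn129)* (exact permutation test, two-sided, p = 0.1, n = 3 per genotype, the smallest p this design allows).

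The strongest transcripts came from *vit-6* and *vit-2*. *vit-6* was measured at 57.0, 70.8 and 28.9 CPM in *set-2(bn129)* replicates 1, 2 and 3, against 92.0, 191 and 259 CPM in WT replicates 1, 2 and 3. *vit-2* had 47.0, 54.6 and 23.3 CPM in *set-2(bn129)* and 72.0, 125 and 177 CPM in WT. *set-2(bn129)* replicate 3 was the lowest library and WT replicate 3 the highest for both genes. The genotypes did not overlap, although the lowest WT library exceeded the highest *set-2(bn129)* library by only 1.30-fold for *vit-6* and 1.32-fold for *vit-2*. The log2 fold change of *vit-6* was -1.80 (standard error 0.34, 95% interval -2.56 to -1.05, edgeR quasi-likelihood test, adjusted p = 0.0017). That of *vit-2* was -1.60 (standard error 0.31, 95% interval -2.28 to -0.91, edgeR adjusted p = 0.0020).

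*vit-5* stood between these and the weakest members. It was measured at 20.4, 23.5 and 8.87 CPM in *set-2(bn129)* replicates 1, 2 and 3, against 35.7, 54.7 and 87.0 CPM in WT replicates 1, 2 and 3. Its log2 fold change was -1.77 (standard error 0.33, edgeR adjusted p = 0.0016). Its tandem relatives were weaker still. *vit-3* had 5.77, 6.48 and 3.12 CPM in *set-2(bn129)* and 11.6, 20.1 and 33.8 CPM in WT, and its log2 fold change of -2.11 had a standard error of 0.35 (edgeR adjusted p = 7.1e-04). *vit-4* had 3.39, 4.70 and 2.09 CPM in *set-2(bn129)* and 11.3, 18.8 and 28.6 CPM in WT. Its log2 fold change was -2.55 (standard error 0.33, edgeR adjusted p = 1.5e-04), and its lowest WT library exceeded its highest *set-2(bn129)* library by 2.42-fold.

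*vit-1* had the largest fold among the 6 genes. It was measured at 4.79, 3.68 and 3.08 CPM in *set-2(bn129)* replicates 1, 2 and 3, against 16.9, 22.1 and 40.1 CPM in WT replicates 1, 2 and 3. The genotypes were separated by 3.54-fold between the lowest WT and the highest *set-2(bn129)* library. The log2 fold change was -2.78 (standard error 0.29, 95% interval -3.42 to -2.14, edgeR adjusted p = 4.4e-05), which is 6.88-fold lower in *set-2(bn129)*.

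**Figure D1:**
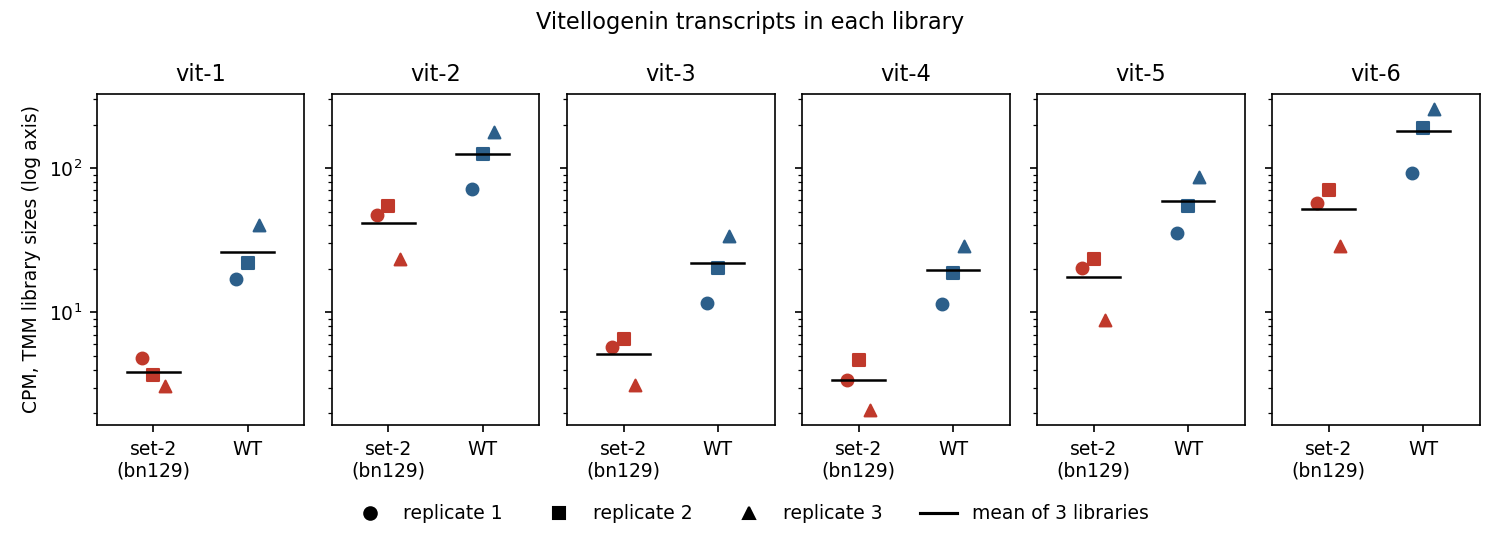
Level of each vitellogenin gene in each library, in CPM on a log axis, with *set-2(bn129)* (red) left of WT (blue), 1 point per library and a line at the mean of 3 libraries. All 6 genes are separated by genotype, with *vit-6* at 28.9 to 70.8 CPM in *set-2(bn129)* and 92.0 to 259 CPM in WT, and WT replicate 1 is the WT library closest to the mutant for every gene.

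All 6 genes were called lower in *set-2(bn129)* gonads by the rule used throughout (adjusted p no higher than 0.05, and a log2 change of 0.58 or more in either direction). Of the 9431 genes tested, 8.36% were called lower and 6.99% higher, 15.3% in all. With the adjusted p alone 21.1% were lower. DESeq2 also called all 6 lower, against 6.21% of the 11699 genes it tested. On chromosome X alone 14.3% of 1119 genes tested were called lower. The 3 *set-2(bn129)* libraries lay below the 3 WT libraries for all 6 genes, against 2454 (26%) of all genes tested. The median log2 fold change was -1.96 over the 6 genes and -0.00090 over all genes tested. A log2 fold change as low as that of *vit-2*, the smallest of the 6, was found for 2.03% of genes. Leaving out any 1 library left all 6 genes called. Only 2 of the 6, *vit-1* and *vit-4*, passed in a fit of 19326 genes with no low count filter and a robust prior, a setting chosen after the data were seen, with edgeR adjusted p-values of 0.081 to 0.13 for the other 4. That fit called 4.94% of genes lower.

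Spread between replicates was far larger for vitellogenins than for most genes. The highest WT library exceeded the lowest by 2.37-fold to 2.90-fold, depending on the gene, against a median of 1.12-fold over all genes tested. A spread of at least 2.37-fold among WT libraries was seen in 5.11% of genes. Among *set-2(bn129)* libraries it was 1.55-fold for *vit-1* and 2.08-fold to 2.65-fold for the other members, against a median of 1.13-fold. Counting noise was smaller than this. The coefficient of variation was 22.4% to 43.9% in *set-2(bn129)* and 42.2% to 51.1% in WT, while counting alone would give 2.69% to 10.5% in *set-2(bn129)* and 1.52% to 4.61% in WT. The ends of this range were the same libraries for the whole family. WT replicate 1 was the lowest WT library, WT replicate 3 the highest and *set-2(bn129)* replicate 3 the lowest mutant library for all 6 genes. Within *set-2(bn129)*, replicate 1 was the highest for *vit-1* and replicate 2 for the other 5.

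Levels of the genes were set side by side per kilobase of exon, a scale that does not correct for reads lost from the close copies. The order of the 6 genes, among the copies as well as against *vit-6*, may therefore hold that loss. The order was the same in the 3 WT libraries. *vit-6* averaged 10.3 ± 4.21 CPM per kilobase (SD, n = 3) in *set-2(bn129)* and 35.7 ± 16.6 (SD, n = 3) in WT. *vit-2* averaged 8.44 ± 3.31 CPM per kilobase in *set-2(bn129)* and 25.3 ± 10.7 in WT, within 1 SD of *vit-6* in both genotypes, although *vit-6* was the higher of the pair in each library. *vit-5* averaged 3.61 ± 1.58 in *set-2(bn129)* and 12.1 ± 5.33 in WT on the same scale. *vit-3*, *vit-1* and *vit-4* averaged 1.04 ± 0.36, 0.76 ± 0.17 and 0.69 ± 0.26 in *set-2(bn129)*, against 4.44 ± 2.27, 5.18 ± 2.397 and 3.97 ± 1.76 in WT. In WT the last 3 genes differed by less than 1 SD of any of them. In *set-2(bn129)*, *vit-3* lay above *vit-1* and *vit-4* by more than 1 SD of those genes but by less than its own, and it exceeded *vit-4* in all 6 libraries. Among 9399 genes tested with a known exon length, *vit-6* ranked 4967 to 5718 from the top in *set-2(bn129)* and 2740 to 4807 in WT.

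Although all members were lower, their proportions were not the same in both genotypes. *vit-1* made up 3.46%, 2.25% and 4.45% of vitellogenin counts in *set-2(bn129)* replicates 1, 2 and 3, against 7.07%, 5.11% and 6.42% in WT replicates 1, 2 and 3. *vit-4* made up 2.45%, 2.87% and 3.01% in *set-2(bn129)*, against 4.73%, 4.35% and 4.58% in WT. Both shares were lower in each mutant library than in any WT library. For *vit-1* the exact binomial 95% intervals of the closest libraries overlapped (3.62% to 5.41% in *set-2(bn129)* replicate 3 and 4.69% to 5.56% in WT replicate 2), while for *vit-4* they did not (2.33% to 3.82% and 3.96% to 4.77% in the same libraries). *vit-2* took a larger share in the mutant, with 33.7% ± 0.34 (SD, n = 3) in *set-2(bn129)* and 29.1% ± 0.88 (SD, n = 3) in WT. *vit-3* took 4.21% ± 0.27 in *set-2(bn129)* and 4.97% ± 0.38 in WT, again without overlap. The share of *vit-6* was 42.0% ± 1.06 in *set-2(bn129)* and 41.4% ± 2.95 in WT, and that of *vit-5* was 14.0% ± 1.03 in *set-2(bn129)* and 13.8% ± 1.11 in WT, with overlapping libraries. Exact permutation tests over the 6 shares gave p = 0.1 for *vit-1* to *vit-4* (0.15 after adjustment over 6 genes), 0.9 for *vit-5* and 0.8 for *vit-6*, and 3 libraries against 3 cannot go below 0.1.

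**Figure D2:**
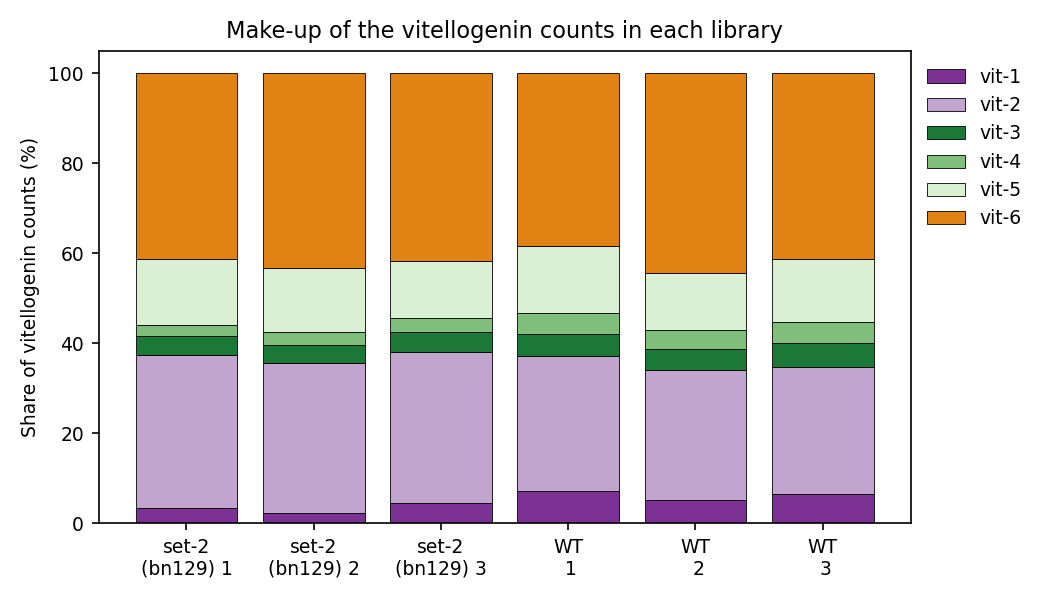
Share of each vitellogenin gene in the vitellogenin counts of a library, in percent, 1 stacked bar per library with the 3 *set-2(bn129)* libraries left of the 3 WT libraries. *vit-6* and *vit-2* fill most of each bar, and the *vit-1* band is 2.25% to 4.45% in *set-2(bn129)* and 5.11% to 7.07% in WT.

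The same counts were also compared as pairs of genes within a library, which restates the shares and is not a separate observation. Of the 15 ratios between members, 10 did not overlap between genotypes, against 40.8% of the 120 ratios between genes of the intestine list below. *vit-1* over *vit-2* differed most, with a mean log2 ratio of -3.37 ± 0.49 (SD, n = 3) in *set-2(bn129)* and -2.24 ± 0.22 (SD, n = 3) in WT, a difference of -1.12 (exact permutation p = 0.1, 0.15 after adjustment over 15 pairs). The near-identical tandem genes, counted without reads that match both equally well, also had ratios that did not overlap between genotypes. *vit-3* over *vit-4* had a log2 ratio of 0.77, 0.46 and 0.58 in *set-2(bn129)* replicates 1, 2 and 3, against 0.036, 0.10 and 0.24 in WT replicates 1, 2 and 3 (exact permutation p = 0.1, 0.15 after adjustment over 15 pairs). By contrast, *vit-5* over *vit-6* differed by -0.01 (p = 0.9). *vit-6* over *vit-2*, the autosomal against the strongest X-linked gene, had a mean log2 ratio of 0.32 ± 0.05 in *set-2(bn129)* and 0.51 ± 0.14 in WT, with overlapping libraries (difference -0.19, exact permutation p = 0.2, n = 3 per genotype). This difference lay between -0.26 and -0.13 when 1 library was left out.

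Most transcripts of the intestine list that were tested were also lower in *set-2(bn129)* gonads. The intestine list held 25 genes without vitellogenins, of which 16 were tested, 12 were called lower and 0 were called higher by edgeR. Over all genes tested, 8.36% were called lower and 6.99% higher. At an unadjusted p under 0.05, 13 of the list were lower and 0 higher. DESeq2 called 10 of the list lower and 0 higher, against 6.21% lower over all genes it tested. The median log2 fold change was -1.71. *acdh-1*, an acyl-CoA dehydrogenase gene and the most abundant of the list, was measured at 13.3, 14.9 and 13.2 CPM in *set-2(bn129)* and 23.4, 38.5 and 39.0 CPM in WT. Its log2 fold change was -1.29 (standard error 0.16, edgeR adjusted p = 1.4e-04). *asp-1*, which encodes an aspartyl protease, had 4.15, 3.89 and 1.41 CPM in *set-2(bn129)* and 6.54, 17.98 and 25.7 CPM in WT. Its log2 fold change was -2.43 (edgeR adjusted p = 0.0015), which did not pass in the unfiltered fit with a robust prior (0.11). Of the other genes named by rule, *act-5*, the actin of intestinal microvilli, fell by 1.37 on the log2 scale. The largest fall was that of *spp-5*, a saposin-like gene, at -2.72, followed after *asp-1* by the lysozyme genes *lys-4* (-2.36) and *lys-8* (-1.96) and the proton pump gene *vha-6* (-1.90). Counts in *set-2(bn129)* were low for *spp-5* (6 to 17, against 37 to 96 in WT), *lys-4* (4 to 5, against 13 to 32) and *lys-8* (6 to 16, against 17 to 55). WT counts carried these genes past the low count filter, and they were absent from the fit with at least 10 counts in every library. Of the 4 tested genes that were not called, *fat-7* had a log2 fold change of 0.33, *nhx-2* of -0.07, *pept-1* of -0.63 and *lipl-5* of -1.04, and these were named after their values were seen. *pgp-1*, too low to be tested, stood the other way, with 0.30, 0.61 and 0.51 CPM in *set-2(bn129)* and 0.12, 0.17 and 0.083 CPM in WT. In the list, 9 of the 16 genes had a lower log2 fold change than *vit-2*. *aqp-4* and *ftn-1* had 3 counts or fewer in every library, and *ges-1*, a gut esterase gene, held 5 to 10 counts in *set-2(bn129)* libraries and 7 to 13 counts in WT libraries.

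**Figure D3:**
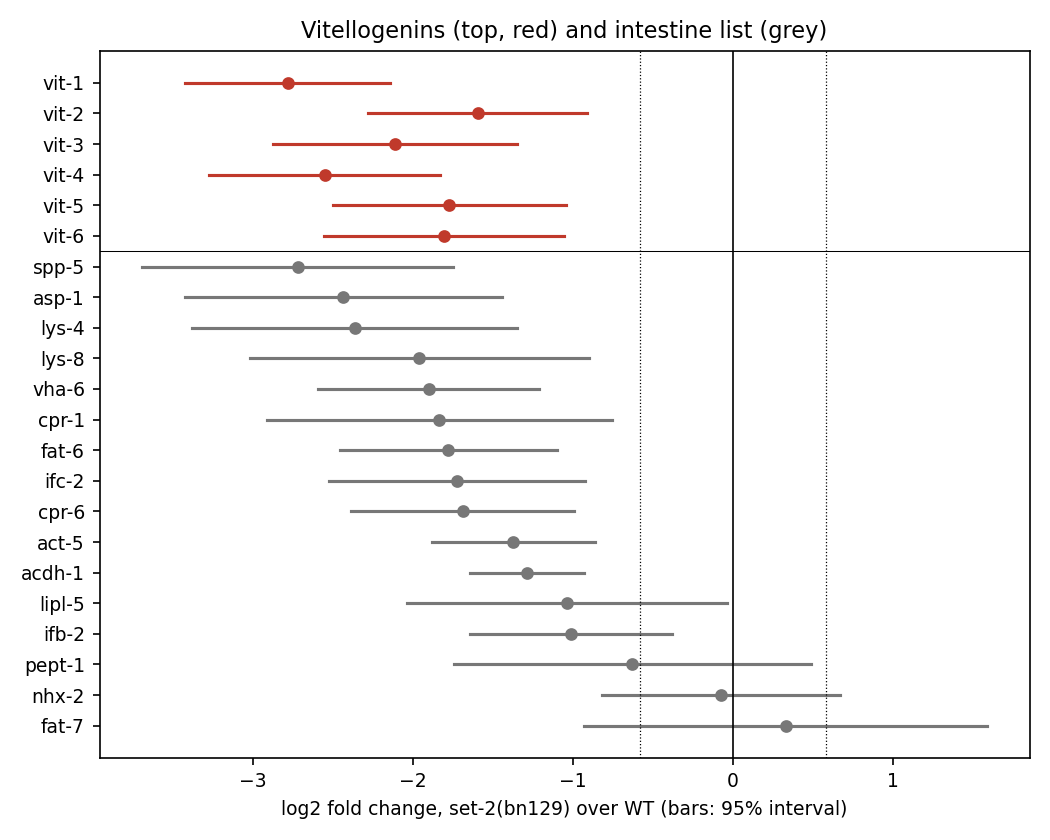
Log2 fold change of *set-2(bn129)* over WT with its 95% interval for the 6 vitellogenin genes (red, top) and the 16 tested genes of the intestine list (grey), with dotted lines at the fold threshold of 0.58. The vitellogenins lie between -2.78 and -1.60, and the intestine genes reach from -2.72 for *spp-5* to 0.33 for *fat-7*. All vitellogenins but *vit-1*, which lies just below *spp-5*, fall within the range of the intestine genes.

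The vitellogenin sum was then set against the sum of the intestine list in the same library. It was 4.03, 4.36 and 2.62 times that sum in *set-2(bn129)* replicates 1, 2 and 3, against 4.39, 4.03 and 5.13 times in WT replicates 1, 2 and 3. The genotypes overlapped. The mean log2 ratio was 1.84 ± 0.39 (SD, n = 3) in *set-2(bn129)* and 2.17 ± 0.18 (SD, n = 3) in WT, a difference of -0.33 (exact permutation test, two-sided, p = 0.2). The difference was -0.10 without *set-2(bn129)* replicate 3, and -0.18 without *acdh-1* in the sum. With the geometric mean of the list in place of its sum the difference was -0.75 and the libraries no longer overlapped (exact permutation p = 0.1). In dissected tissue, fewer intestinal cells and less RNA per intestinal cell cannot be told apart.

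**Figure D4:**
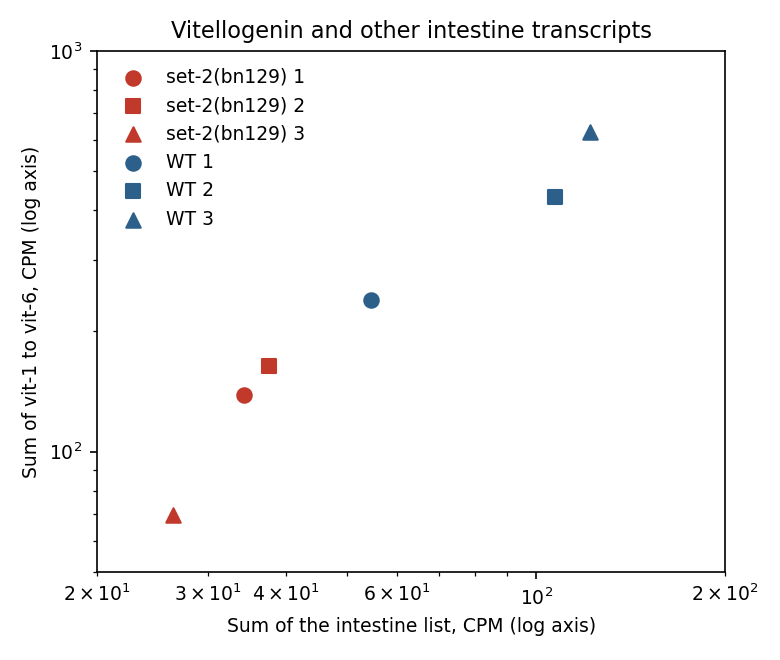
Sum of *vit-1* to *vit-6* against the sum of the 25 intestine genes in each library, both in CPM on log axes, with *set-2(bn129)* in red and WT in blue and a marker shape per replicate number. The vitellogenin sum runs from 69.3 CPM in *set-2(bn129)* replicate 3 to 626 CPM in WT replicate 3, which are also the libraries with the lowest (26.4 CPM) and highest (121.9 CPM) intestine sum.

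Markers of other somatic tissues also differed between the genotypes. Over all genes tested, 8.36% were called lower and 6.99% higher. The sum of 6 pharyngeal muscle genes was 3.44 to 4.79 CPM in *set-2(bn129)* and 17.8 to 41.5 CPM in WT, with 5 of 5 tested genes called lower and *ceh-22* at 3 counts or fewer throughout. Of these, *tnt-4* (0 to 2 counts in *set-2(bn129)*, 16 to 36 in WT) and *myo-2* (5 to 13 and 116 to 326) passed the low count filter only through WT. The sum of 17 body wall muscle genes was 261 to 309 CPM in *set-2(bn129)* and 343 to 585 CPM in WT, with 14 of 16 tested genes called lower. For the 14 hypodermis genes the sums were 234 to 250.4 CPM in *set-2(bn129)* and 303 to 462 CPM in WT, with 4 of 8 tested genes called lower and 1 called higher, while 5 of the list had 3 counts or fewer throughout. The hypodermis gene called higher, *nhr-25* (14 to 21 counts in *set-2(bn129)*, 2 to 4 in WT), passed the low count filter only through *set-2(bn129)*. Somatic gonad genes, 9 in number, reached 38.0 to 40.1 CPM in *set-2(bn129)* and 62.4 to 79.5 CPM in WT, with 1 of 7 tested genes called in each direction. Much of that sum was *inx-8*, at a mean of 21.7 CPM in *set-2(bn129)* and 51.2 CPM in WT, while *lim-7* and *nhr-6* were higher in *set-2(bn129)*. The gene called higher, *nhr-6* (13 to 29 counts in *set-2(bn129)*, 4 to 9 in WT), passed the filter only through *set-2(bn129)*. DESeq2 called 0 somatic gonad genes higher. The 12 neuronal genes reached 81.2 to 84.9 CPM in *set-2(bn129)* and 88.1 to 93.6 CPM in WT, with 4 of 9 tested genes called lower. Most of the neuronal sum was *snb-1*, at a mean of 62.6 CPM in *set-2(bn129)* and 66.2 CPM in WT, which was not called. Among the neuronal genes called lower, *sbt-1* (5 to 10 counts in *set-2(bn129)*, 20 to 21 in WT) passed the filter only through WT. The 3 coelomocyte genes, of which 1 was tested and 0 were called in either direction by edgeR, at an unadjusted p under 0.05 or by DESeq2, stood at 0.900 to 1.05 CPM in *set-2(bn129)* and 0.620 to 0.863 CPM in WT. WT replicate 1 was the lowest WT library for the sums of intestine, both muscle lists, hypodermis and neuron, as it was for every vitellogenin gene. The part of these tissues in the vitellogenin result was not tested.

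Relative to these sums, vitellogenins were not uniform. The log2 ratio of the vitellogenin sum to the body wall muscle sum was lower in *set-2(bn129)* by a difference of -0.98, and that to the hypodermis sum by a difference of -1.13, both without overlap between genotypes (exact permutation p = 0.1 each, 0.175 after adjustment over 7 lists). The ratio to the pharyngeal muscle sum differed in the other direction, by 1.12, with overlapping libraries (exact permutation p = 0.2). Ratios to the neuron and germline sums were lower by differences of -1.66 and -1.75, without overlap (exact permutation p = 0.1 each, 0.175 after adjustment). That to the somatic gonad sum differed by -0.96, with overlapping libraries (exact permutation p = 0.3). Without *set-2(bn129)* replicate 3 the difference to body wall muscle was -0.53. These ratios were chosen after the sums had been seen.

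**Figure D5:**
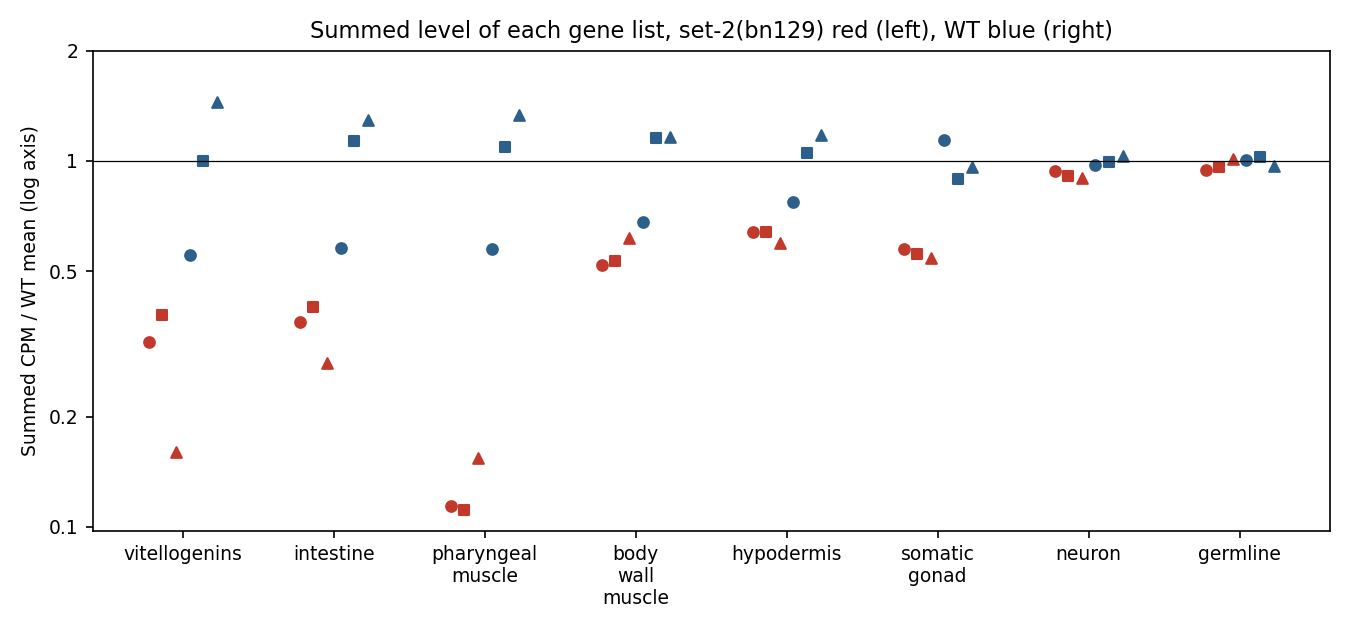
Summed CPM of each gene list in each library divided by the mean of the 3 WT libraries, on a log axis, with *set-2(bn129)* (red) left of WT (blue) and circles, squares and triangles for replicates 1, 2 and 3. Vitellogenin, intestine, muscle, hypodermis, somatic gonad and neuron sums are lower in all 3 *set-2(bn129)* libraries than in WT, while the germline sums, at 4328 to 4637 CPM in *set-2(bn129)* and 4423 to 4686 CPM in WT, overlap. The somatic gonad sum is largely *inx-8* and the neuron sum largely *snb-1*. Of all single genes tested, 26% also have every *set-2(bn129)* library below every WT library.

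Genes reported to regulate vitellogenin expression summed to 404 to 459 CPM in *set-2(bn129)* and 477 to 513 CPM in WT, without overlap. Of 13 such genes, 8 were tested, 0 were called lower and 1 was called higher by edgeR, against 8.36% and 6.99% of all genes. At an unadjusted p under 0.05, 3 were lower and 1 higher, and DESeq2 called 0 in either direction. *elt-2*, *ceh-60*, *pqm-1*, *mab-3* and *dbl-1* had too few counts to be tested. *sma-3*, a Smad of the body size pathway, was measured at 1.66, 2.39 and 2.31 CPM in *set-2(bn129)* and 1.23, 1.32 and 1.12 CPM in WT. Its log2 fold change was 0.79 (edgeR adjusted p = 0.016), which was no longer past 0.05 without *set-2(bn129)* replicate 2 or 3 (0.060 and 0.059) or with DESeq2 (0.051). Below the fold threshold, and named after their values were seen, *daf-16* (FOXO) fell by 0.52, *unc-62* (a homeodomain factor) by 0.43 and *daf-2* (the insulin receptor) by 0.24 on the log2 scale, with edgeR adjusted p-values of 2.3e-05, 0.019 and 0.0028. The adjusted p of *unc-62* was above 0.05 when WT replicate 2 (edgeR adjusted p = 0.053) or *set-2(bn129)* replicate 1 (0.067) was left out, and with total counts as library sizes (0.062), where that of *daf-2* was 0.057.

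The sum of the genes for yolk assembly and uptake overlapped between genotypes, at 3292 to 3441 CPM in *set-2(bn129)* and 3379 to 3485 CPM in WT. Most of it came from *rme-2* and *chc-1*, and levels differed widely within the list. The lowest gene, *dsc-4*, averaged 0.51 CPM in *set-2(bn129)* and 0.93 CPM in WT. Its log2 fold change was -0.88 (edgeR adjusted p = 0.082). The yolk receptor gene *rme-2* was measured at 1714, 1738 and 1712 CPM in *set-2(bn129)* replicates 1, 2 and 3, against 1678, 1624 and 1610.2 CPM in WT replicates 1, 2 and 3. Its log2 fold change was 0.07 (95% interval -0.02 to 0.16, edgeR adjusted p = 0.19). All 16 genes of the list were tested, and against a share of 15.3% over all genes tested only *cav-1*, encoding caveolin, was called. It was measured at 9.69, 11.5 and 9.35 CPM in *set-2(bn129)* and 5.43, 4.89 and 5.78 CPM in WT, and its log2 fold change of 0.92 had a standard error of 0.13 (edgeR adjusted p = 2.3e-04). Under the fold threshold, 4 genes passed the adjusted p and were lower, namely the clathrin gene *chc-1* (-0.28), the endosomal GTPase genes *rab-7* (-0.37) and *rab-5* (-0.18) and the recycling gene *rme-1* (-0.27), which were named after their values were seen. The adjusted p of *rab-5* was above 0.05 without replicate 1 or 2 of either genotype (edgeR adjusted p = 0.057 to 0.083) and with total counts as library sizes (0.34).

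The genes whose level followed the vitellogenins most closely were ranked by Pearson correlation of log2 CPM over the 6 libraries with the mean of the 6 members. Because the genotypes stand apart, such a value also holds the genotype difference, and the libraries share their depth and tissue make-up. The 5 highest were *asp-3*, an aspartyl protease gene (r = 0.999), *dhs-25*, a dehydrogenase gene (0.997), *ZC449.5* (0.997), *nra-1* (0.996) and *cdd-2*, a cytidine deaminase gene (0.995). *asp-3* was measured at 2.64, 2.87 and 1.38 CPM in *set-2(bn129)* and 5.18, 7.69 and 12.4 CPM in WT, and its r was 0.997 after the mean of each genotype had been removed. The size of the change was not shared, since *nra-1* had a log2 fold change of -0.23 and *cdd-2* of -0.33, against -1.89 for *asp-3*. An r of at least 0.95 was found for 201 genes (2.13% of the genes tested), 7 of the 16 tested intestine genes among them.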

How the data were processed

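RNA from dissected gonads was sequenced as single 50-base reads from libraries depleted of ribosomal RNA, although the labels call the molecule polyA RNA. The authors mapped reads to the worm genome WS254 with STAR 2.4.1d, removed reads with a mapping quality under 10 with SAMtools 0.1.19, and deposited raw counts per gene from htseq-count 0.7.2. The mode and strand setting of the counting are not given in the sources used here. A further deposited table, which holds only numbers of genes at steps of the authors' own comparison, was not used.

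Rows without a gene numbered 0. Gene symbols and positions came from the Ensembl 115 annotation of WBcel235, and exon length is the union of exons. Counts were tested with edgeR 4.0.16 (R 4.3.3) (filterByExpr, TMM, estimateDisp, glmQLFit, glmQLFTest) in a model of genotype alone, with Benjamini-Hochberg adjustment over 9431 genes. Standard errors were the fitted coefficient (with edgeR's default prior count) over the square root of its F statistic, and 95% intervals follow from them. Single values per library were compared with exact permutation tests (scipy 1.17.1). Binomial intervals are exact (Clopper-Pearson). Replicates of a genotype differed by more than sampling noise (chi-square over its degrees of freedom, 9.30 to 28.6).

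The members, gene lists and thresholds were chosen with earlier results of these data known. Named genes were the 6 members, *set-2*, *rme-2*, called genes of the regulator and uptake lists, the 3 most abundant and up to 5 called intestine genes of largest fold, and 5 genes of like pattern. Alternatives were DESeq2 1.42.0, other scalings, filters and thresholds, the removal of each library and a replicate block. The fits were tested on simulated data. No sequences are shown.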

Additional observations from a re-analysis of the deposited data

How the results depend on the processing

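All 6 vitellogenin genes stayed called lower under DESeq2 size factors, upper quartile scaling, total counts with and without ribosomal RNA genes, a minimum of 10 counts in every library, DESeq2's Wald test, a replicate block, a log2 fold threshold of 1 and the removal of any 1 library, where the number called was 6 in each fit. With no low count filter and a robust prior, 2 genes were called. The unfiltered fit without a robust prior called 6. Its prior degrees of freedom were infinite, so its p-values do not use the spread of the single gene, while those of the members in the robust fit were at most 4.6e-07 (infinite for the median gene), so its p-values rest on the single gene's spread alone. Without 1 library, the log2 fold change lay between -3.02 and -2.35 for *vit-1*, -1.87 and -1.25 for *vit-2*, -2.42 and -1.65 for *vit-3*, -2.85 and -2.17 for *vit-4*, -2.04 and -1.38 for *vit-5* and -2.12 and -1.45 for *vit-6*, with edgeR adjusted p-values of at most 0.0096. The summed log2 ratio lay between -2.16 and -1.42 and that of vitellogenins to the intestine list between -0.47 and -0.10. Total counts moved the median of all genes by 0.11 (log2), and *vit-2*, at -1.47 there, and *rme-2*, at 0.19 (edgeR adjusted p = 0.0055), are to be read against that shift. With a replicate block, *vit-1* changed by -2.71 and *vit-2* by -1.55. Libraries with the same number did not deviate together (r of -0.097, -0.048 and -0.18 over genes, against -0.053 to 0.16 for different numbers). Because the deviations are taken from means of only 3 libraries, this cannot exclude that libraries with the same number were handled together. Depth limits *vit-4* most, with 65 counts in *set-2(bn129)* replicate 3.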

Other observations

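Of 40 other genes tested within 50 kb of a vitellogenin gene, 7 (17.5%) were called lower and 2 were called higher in *set-2(bn129)* gonads, and their median log2 fold change was -0.03, with a range of -3.46 to 1.54. Over all genes tested 8.36% were called lower, and 14.3% on chromosome X. This window was chosen after the members' values were seen.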
